A study of Sus scrofa with 17 samples.

Results

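The neuromuscular junction genes described here were 10 genes named by symbol for their place in the postsynaptic machinery of skeletal muscle. They were 5 subunits of the muscle acetylcholine receptor (CHRNA1, CHRNB1, CHRND, CHRNE and CHRNG) and 5 genes that gather the receptor under the nerve (AGRN, LRP4, MUSK, DOK7 and RAPSN). Of these 10 genes, 6 had a gene model of their own among the 31908 genes counted, and all 6 passed the filter on low counts that left 14203 genes for testing. The study fed male Large White × Duroc piglets, 28 days old, a wheat, maize and soybean meal diet (control), a diet with 7% of the green seaweed Ulva lactuca (UL), or the UL diet with 0.01% of a recombinant ulvan lyase, an enzyme that cuts the seaweed's cell wall polysaccharide (ULU). The piglets were housed individually in metabolic cages and pair-fed for 2 weeks after 5 days of adaptation. Reads of longissimus muscle RNA were single and 75 nt long, with 6 control, 6 UL and 5 ULU libraries in the count table. The study's methods name 6 piglets per diet for RNA.

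At the neuromuscular junction a motor neuron releases acetylcholine onto receptors packed into a small patch of the muscle fibre membrane. Agrin from the nerve terminal binds LRP4, which activates the kinase MuSK. DOK7 sustains that kinase, and rapsyn anchors the receptors. In innervated fibres the receptor genes are transcribed mainly by nuclei beneath the synapse, and electrical activity keeps them low elsewhere. After denervation, and in growing or regenerating fibres, their transcription spreads along the fibre, with myogenin among its drivers, and the gamma subunit of the fetal receptor gives way to epsilon as the muscle matures.

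The libraries held between 16137365 and 26546810 counted reads. Median depth was 17240387 reads in control, 18398491.5 in UL and 22320520 in ULU. At these depths, 3 reads of a gene corresponded to between 0.13 and 0.195 CPM (reads scaled to a common library size with TMM factors), and such limits cover counting error only. The share of reads from the mitochondrial chromosome moved with diet. Control averaged 14.8% ± 0.697 (SD, n = 6), UL 11.6% ± 2.11 (SD, n = 6) and ULU 10.2% ± 1.47 (SD, n = 5), and every control library was above every ULU library. An alternative model took this share as a covariate. Its values are given below where it turned a direction, ended a call or clearly moved a value, and it was not applied to the medians of gene lists. Since control and ULU did not overlap in this share, the model cannot fully separate the share from the diet in ULU vs control. The part of the mitochondrial share in the results was not tested in any other way.

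The gene models set what could be measured. CHRNA1, the ligand-binding alpha subunit (ENSSSCG00000015969, Sscrofa11.1 chromosome 15, 80673033 to 80692208), had between 393 and 8115 reads per library. CHRNE, the epsilon subunit of the adult receptor (ENSSSCG00000017909, chromosome 12, 52011250 to 52016301), had between 26 and 209 reads, and RefSeq lists this locus as a long noncoding RNA. MUSK (ENSSSCG00000005456, chromosome 1, 251650710 to 251756608) had between 359 and 1980 reads. These 3 genes were the best covered of the 6.

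LRP4 (ENSSSCG00000013248, chromosome 2, 15616131 to 15672874) had between 24 and 79 reads. AGRN (ENSSSCG00000022204, chromosome 6, 63365983 to 63398311) had between 20 and 75 reads, with 55.2% of its exonic bases free of overlap with an unnamed model on the same strand. DOK7 (ENSSSCG00000008702, chromosome 8, 2089670 to 2122685) was found by position, and had between 2 and 22 reads. In 2 libraries DOK7 was under 3 reads, so its values carry the widest counting error of the set.

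The other 4 genes gave no usable level. CHRND and CHRNG were covered only by a pair of overlapping models that span both genes on chromosome 15 (133040340 to 133058544). These models share almost all of their exons, which leaves reads there unassigned: 0.6% of the exonic bases of the first were free of overlap, and it had 0 to 2 reads, while the other had 0%, and 0 reads. These counts are no measure of delta or gamma expression. The beta subunit gene CHRNB1 lay partly within the model named FGF11, with 51.5% of that model's exonic bases inside the CHRNB1 span, and RAPSN lay within models named PSMC3 (36.6%) and CELF1 (31.3%). Reads of CHRNB1 and RAPSN could not be separated from those of these neighbours. The switch from the gamma to the epsilon subunit could therefore not be measured.

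Compared between genes as CPM per kilobase of exon that no other gene model shares, the alpha subunit was the most abundant of the 6 transcripts. CHRNA1 averaged 21.1 ± 20.7 CPM per kilobase (SD, n = 17). Over whole exon lengths, its level was above that of 90.9% of the tested genes. MUSK followed with 4.63 ± 1.79 and CHRNE with 2.02 ± 0.917 CPM per kilobase (SD, n = 17). CHRNA1 was above MUSK in 17 of 17 libraries, and MUSK above CHRNE in 16 of 17. The remaining transcripts were far scarcer. AGRN averaged 0.532 ± 0.207, LRP4 0.264 ± 0.0892 and DOK7 0.0867 ± 0.0484 CPM per kilobase (SD, n = 17). CHRNE was above AGRN in 17 libraries, AGRN above LRP4 in 15 and LRP4 above DOK7 in 17. How far AGRN and LRP4 lay apart depended on the length used, a choice made after the values were seen: over all exonic bases of its model AGRN averaged 0.294 ± 0.114 CPM per kilobase (SD, n = 17) and was above LRP4 in 10 of 17 libraries.

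Among piglets, CHRNA1 spanned an 18.2-fold range, with a coefficient of variation of 98.1% against 2.49% from counting alone. ULU piglet 42 set much of this spread: without it the range was 6.31-fold and the coefficient 52.0%. DOK7 then varied most, with a 9.93-fold range and 58.1%, of which counting alone would give 31.3% at its mean depth over all libraries.

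The 3 diets were compared in pairs, which ask how the seaweed acts, how the seaweed with enzyme acts, and what the enzyme adds to the seaweed. UL vs control and ULU vs control share the control piglets, and each diet enters 2 of the 3 comparisons, so the comparisons are not independent of each other. In every comparison the diets overlapped for each of the 6 genes, and no member passed the test. The share of all tested genes without overlap between diets is not given here, so the overlap only describes these members. The values of each gene are given first, from the receptor to the agrin pathway.

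CHRNA1 ranged in control from 23.4 CPM through a median of 54.2 to 122 CPM, and in UL from 32.2 through 65.3 to 112 CPM. In ULU it measured 42.5, 51.3, 352, 19.4 and 50.1 CPM in piglets 40 to 44. Piglet 42 stood far above all other animals of the study, while the other ULU animals lay below the control median. The group means were 68.8 ± 39.7 (SD, n = 6), 67.4 ± 29.9 (SD, n = 6) and 103 ± 140 CPM (SD, n = 5) in control, UL and ULU. The log2(fold change) was -0.03 (SE 0.55) in UL vs control, 0.58 (SE 0.58) in ULU vs control and 0.61 (SE 0.58) in ULU vs UL. By edgeR's quasi-likelihood F test and Benjamini-Hochberg adjustment over all tested genes, adjusted p was 0.992, 0.622 and 0.779, where a gene passes below 0.05. Without ULU piglet 42 the direction turned, with a log2(fold change) of -0.75 in ULU vs control and -0.72 in ULU vs UL, and neither value passed the test. The UL vs control value was 0.43 with the mitochondrial share as a covariate, and it was positive without control piglet 22 (0.22) or 26 (0.17) or UL piglet 27 (0.11), 31 (0.02) or 32 (0.07). With the covariate the ULU vs control value was 1.20 (SE 1.12).

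CHRNE ranged in control from 1.42 CPM through a median of 3.81 to 4.78 CPM, and in UL from 2.78 through 5.65 to 9.91 CPM. The ULU piglets 40 to 44 had 5.59, 4.22, 3.38, 2.41 and 3.36 CPM. Of the 6 UL piglets, 4 were above every control, but UL piglets 27 and 32 lay below the control median, and ULU overlapped both other diets. UL vs control gave a log2(fold change) of 0.70 (SE 0.31), ULU vs control 0.13 (SE 0.33) and ULU vs UL -0.58 (SE 0.33). Adjusted p was 0.425, 0.869 and 0.553 by edgeR's quasi-likelihood F test and Benjamini-Hochberg adjustment, and the first of these had an unadjusted p of 0.035. With the mitochondrial share as a covariate, CHRNE had a value of 0.49 in UL vs control, and its value in ULU vs control was -0.20. The latter was -0.03 without control piglet 24 and -0.06 without ULU piglet 40. Without UL piglet 30 the UL vs control value was 0.46 and the ULU vs UL value -0.34.

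MUSK, the receptor tyrosine kinase that starts receptor clustering, ranged from 21.8 CPM through a median of 33.4 to 51.8 CPM in control and from 27.8 through 34.9 to 44.4 CPM in UL. In ULU piglets 40 to 44 it measured 38.1, 35.2, 85.8, 28.1 and 30.8 CPM. Piglet 42 was again the highest animal of the study, and the other ULU piglets lay inside the control range. The log2(fold change) was 0.06 (SE 0.25) in UL vs control, 0.35 (SE 0.26) in ULU vs control and 0.29 (SE 0.26) in ULU vs UL, with adjusted p of 0.963, 0.506 and 0.766 by edgeR's quasi-likelihood F test and Benjamini-Hochberg adjustment. Without ULU piglet 42 the last 2 values were -0.05 and -0.11. With the mitochondrial share as a covariate the 3 values were 0.38, 0.82 and 0.44, and none passed. The UL vs control value was close to 0 and changed sign without control piglet 21 (-0.01), control piglet 23 (-0.04) or UL piglet 29 (-0.02).

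DOK7, the adaptor that sustains MuSK activity, ranged from 0.121 CPM through a median of 0.323 to 0.669 CPM in control and from 0.231 through 0.839 to 0.978 CPM in UL. It measured 0.568, 0.650, 0.607, 0.0986 and 0.486 CPM in ULU piglets 40 to 44. In UL, 4 of 6 piglets lay above every control, on 15 to 22 reads each. UL piglet 27 (0.669 CPM, 13 reads) was level with the highest control, piglet 26 (0.669 CPM, 14 reads), and UL piglet 28 lay below the control median. For DOK7 the log2(fold change) was 1.16 (SE 0.47) in UL vs control, 0.51 (SE 0.50) in ULU vs control and -0.65 (SE 0.48) in ULU vs UL. Adjusted p from edgeR's quasi-likelihood F test and Benjamini-Hochberg adjustment was 0.385, 0.619 and 0.694, and the unadjusted p of the first was 0.0235. With the mitochondrial share as a covariate the UL vs control value was 0.93 and the ULU vs control value 0.17, and with 1 library left out it lay between 0.34 (without control piglet 25) and 0.85 (without control piglet 26). The ULU vs UL value was -0.38 without ULU piglet 43.

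LRP4, the agrin receptor, and AGRN, which in bulk muscle comes from muscle and other cells as well as from nerve, passed in no comparison. LRP4 ranged from 1.62 CPM through a median of 2.24 to 2.74 CPM in control and from 1.45 through 1.76 to 3.81 CPM in UL, and measured 1.27, 2.08, 2.12, 2.66 and 3.84 CPM in ULU piglets 40 to 44. AGRN ranged from 0.901 CPM through 2.30 to 4.30 CPM in control and from 1.94 through 2.61 to 4.09 CPM in UL, and measured 1.75, 2.14, 1.73, 1.33 and 3.45 CPM in the same ULU piglets. Diets overlapped in range for each of the 2, but 3 of 5 ULU piglets had less AGRN than every UL piglet. ULU piglet 44 was the highest of its group in LRP4 and AGRN alike.

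The log2(fold change) of LRP4 was -0.07 (SE 0.28) in UL vs control, 0.14 (SE 0.29) in ULU vs control and 0.22 (SE 0.29) in ULU vs UL. That of AGRN was 0.15 (SE 0.32), -0.29 (SE 0.34) and -0.45 (SE 0.34) in the same order. The smallest adjusted p of these 6 values was 0.679, for AGRN in ULU vs control, by edgeR's quasi-likelihood F test and Benjamini-Hochberg adjustment. LRP4 in ULU vs control was -0.21 with the mitochondrial share as a covariate and -0.09 without ULU piglet 44, and its value in ULU vs UL was -0.02 without that piglet. In UL vs control, LRP4 was 0.00 without control piglet 21 and 0.01 without UL piglet 28, and AGRN was -0.02 without control piglet 25. LRP4 in UL vs control was -0.37 with the covariate, and AGRN in ULU vs control was -0.08 without control piglet 23. Without ULU piglet 44 AGRN was at -0.55 in ULU vs control and -0.71 in ULU vs UL.

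**Figure D1:**
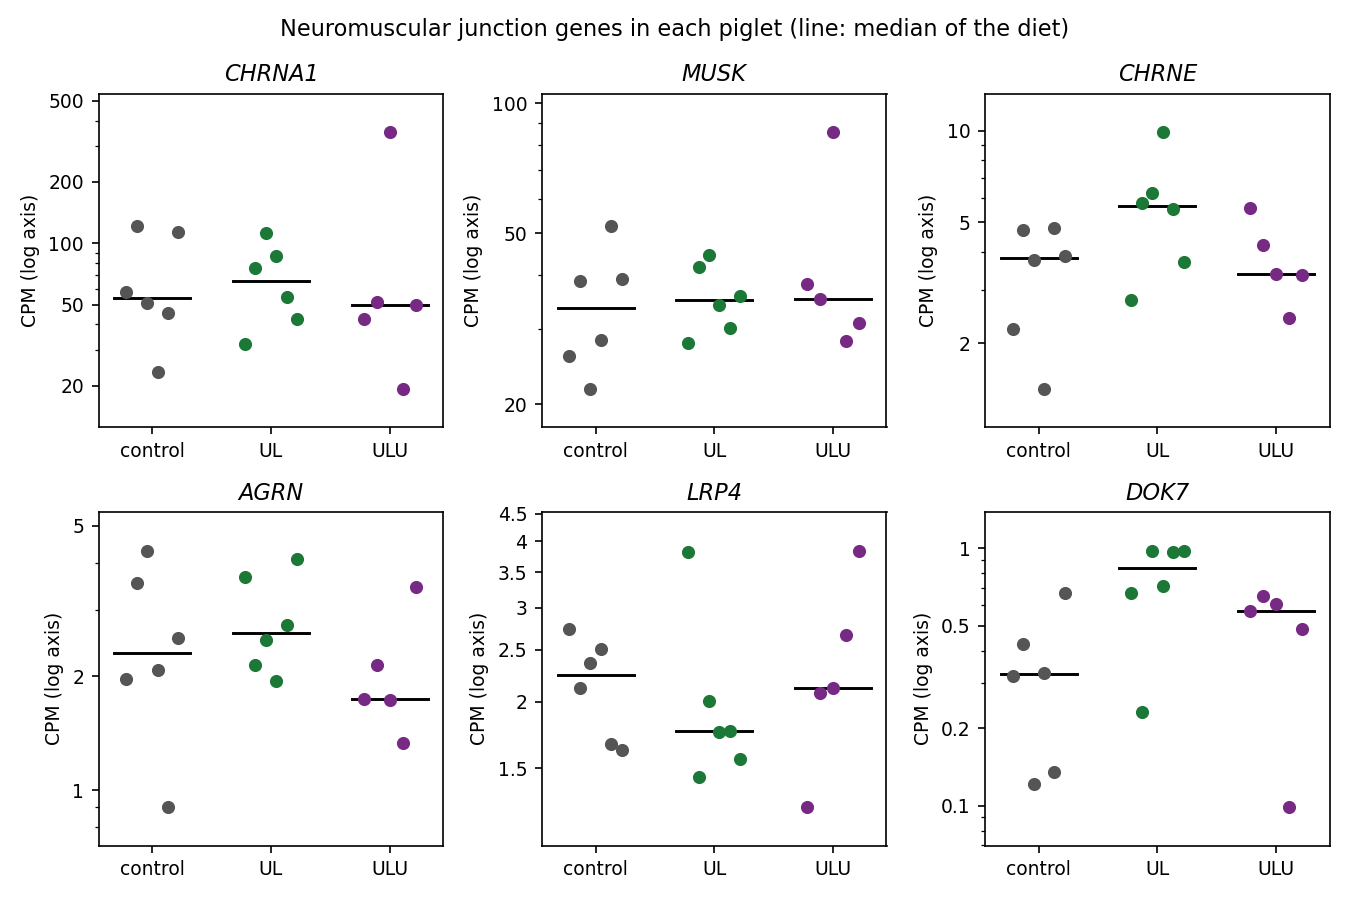
CPM of the 6 measured genes in each piglet on log axes, with 1 point per piglet and a line at the median of the diet. ULU piglet 42 reaches 352 CPM for CHRNA1 and 85.8 CPM for MUSK, and the diets overlap in all 6 panels.

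UL vs control asks what 7% Ulva lactuca did to the junction genes. Of the 6 tested members, 0 passed by edgeR (adjusted p under 0.05), beside 0% of all 14203 tested genes. At an unadjusted p under 0.05 there were 2 members, CHRNE and DOK7, and 1541 genes in all, and DESeq2 passed 0 members and 152 genes. Without control piglet 25, edgeR passed 16 genes in all, and 1 without control piglet 24 or UL piglet 27. The epsilon subunit and the MuSK adaptor were thus the members with the largest values in this comparison, both positive. The median log2(fold change) was 0.11 over the 6 members and -0.00 over all tested genes, with 4 of 6 positive.

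ULU vs control asks what the seaweed did together with the enzyme. Here 0 of 6 members passed by edgeR, beside 2.98% of all tested genes (423 genes, 282 higher and 141 lower). At an unadjusted p under 0.05 there were 0 members among 2678 genes, and DESeq2 passed 0 members among 1069 genes. The total of 423 was 799 without control piglet 25, and between 147 and 252 without control piglet 22, 23, 24 or 26 or ULU piglet 40, 41, 43 or 44. The median log2(fold change) was 0.25 over the members and -0.03 over all tested genes, with 5 of 6 positive. The values of CHRNA1 and MUSK in this median depended on ULU piglet 42, as given above.

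ULU vs UL asks what the ulvan lyase added to the seaweed. In this comparison 0 of 6 members passed by edgeR, beside 0.0352% of all tested genes (5 genes: PER2, AMOTL1 and 3 without a symbol, named here after their values were seen). There were 0 members at an unadjusted p under 0.05 among 1540 genes, and DESeq2 passed 0 members among 252 genes. The total of 5 was between 1 and 3 without UL piglet 28, 29, 30, 31 or 32 or ULU piglet 40, 41, 42 or 44. The median log2(fold change) was -0.12 over the members and -0.02 over all tested genes, with 3 positive and 3 negative.

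**Figure D2:**
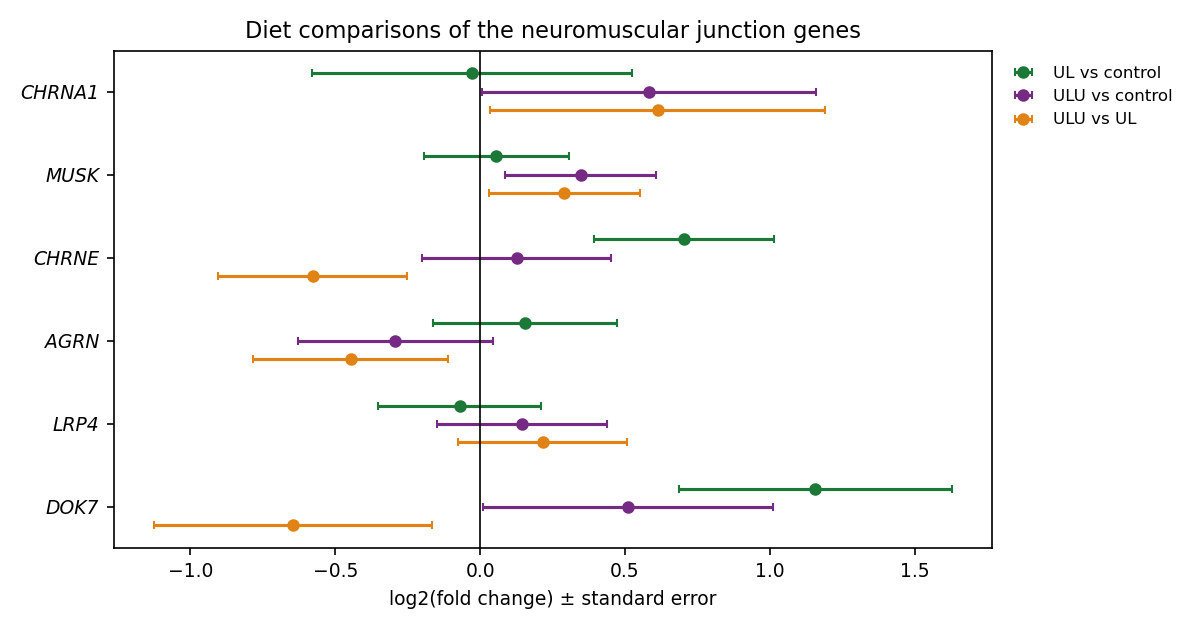
The log2(fold change) of the 6 genes in the 3 comparisons, with bars of 1 standard error. Values run from -0.65 for DOK7 in ULU vs UL to 1.16 for DOK7 in UL vs control, and no value passed the test.

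Around the members, 16 lists covered genes related to the junction, fibre type genes, and markers of muscle fibres and of other cell types. These lists held 141 genes, of which 130 had a gene model and 111 were tested. In UL vs control 0 of the 111 passed by edgeR, with 17 at an unadjusted p under 0.05 (15.3%, beside 10.8% of all tested genes). DESeq2 passed 1 of the 111, beside 152 genes in all. In ULU vs UL the count by edgeR was also 0, with 19 at an unadjusted p under 0.05 (17.1%, beside 10.8%). DESeq2 passed 5 of the 111 there, beside 252 genes in all. In ULU vs control 11 of the 111 passed (9.91%, beside 2.98% of all tested genes), 9 higher and 2 lower. The fibre type list, with 7 tested genes, held 5 of these 11, so the share is not one of junction partners alone. At an unadjusted p under 0.05 there were 40 of the 111 (36.0%, beside 18.9% of all tested genes). DESeq2 passed 24 of the 111 in this comparison, beside 1069 genes in all. DESeq2 was fitted without the filter on low counts, so no share of the 14203 tested genes stands beside its counts. The median log2(fold change) of the 111 genes in ULU vs control was 0.02, beside -0.03 over all tested genes.

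Of the 18 tested regulators of receptor genes, 3 passed in ULU vs control. The myogenic factor MYF6, the one most abundant in mature fibres, measured 49.6, 33.3, 18.4, 36.2 and 33.8 CPM in ULU piglets 40 to 44, against 47.5 through a median of 76.6 to 92.6 CPM in control. Of the 5 ULU piglets, 4 were below every control. MYF6 fell in ULU vs control, with a log2(fold change) of -1.10 (SE 0.21) and an adjusted p of 0.0122 by edgeR's quasi-likelihood F test and Benjamini-Hochberg adjustment. It passed with each of the 17 libraries left out in turn. In the model with the mitochondrial share as a covariate it was at -1.01 (SE 0.36) and did not pass.

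MYOD1, a myogenic factor that binds the promoters of receptor genes, ran the other way. It measured 84.0, 66.1, 82.0, 171 and 96.4 CPM in ULU piglets 40 to 44, against 46.5 through a median of 53.3 to 63.2 CPM in control. Every ULU piglet was above every control. MYOD1 rose in ULU vs control, with a log2(fold change) of 0.86 (SE 0.20) and an adjusted p of 0.0258 by edgeR's quasi-likelihood F test and Benjamini-Hochberg adjustment. Without ULU piglet 43 it had a log2(fold change) of 0.58 and no longer passed. It did not pass either with the mitochondrial share as a covariate, at 0.89 (SE 0.31).

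Of the membrane and signalling genes, the muscle sodium channel SCN4A, which is concentrated in the folds beneath the nerve and carries the action potential along the fibre, rose in ULU vs control. SCN4A measured 36.7, 42.8, 46.0, 68.6 and 60.9 CPM in ULU piglets 40 to 44, against 29.0 through 35.1 to 36.5 CPM in control, so that every ULU piglet was above every control. Its log2(fold change) was 0.58 (SE 0.15), with an adjusted p of 0.04 by edgeR's quasi-likelihood F test and Benjamini-Hochberg adjustment. It no longer passed without control piglet 22, 23, 24 or 26 or ULU piglet 43 or 44, at values between 0.44 (without ULU piglet 43) and 0.59. CAPN1, a calpain that rapsyn restrains at the synapse, rose by 0.41 (SE 0.10) with no overlap between ULU and control. ABL2, a kinase that MuSK signals through, fell, with a log2(fold change) of -0.77 (SE 0.21). CAPN1 did not pass without control piglet 22, 23 or 26 or without ULU piglet 41, 42, 43 or 44, at values between 0.37 and 0.43. ABL2 passed only without control piglet 25 or UL piglet 32, and lay between -0.85 and -0.63 in the other 15 of 17 runs. None of these 3 genes passed with the mitochondrial share as a covariate, at 0.83 (SE 0.23) for SCN4A, 0.49 (SE 0.16) for CAPN1 and -1.24 (SE 0.32) for ABL2.

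Among the 11 list genes that passed in ULU vs control, those of the fibre type list were the most numerous. In the fibre type list, 5 of 7 tested genes rose in ULU vs control and 0 fell, with a median log2(fold change) of 0.65. They were the slow troponins TNNT1 (1.30) and TNNI1 (0.92), the fast troponin TNNT3 (0.66), the calcium pump ATP2A1 of fast fibres (0.65) and the fast myosin MYH2 (0.53). Slow and fast genes were not highest in the same animals: ULU piglet 43 was the lowest of its diet for TNNT1 (505 CPM) and TNNI1 (534 CPM) and the highest for ATP2A1 (6570 CPM), TNNT3 (13200 CPM) and MYH2 (37659 CPM). With 1 library left out, TNNT1 did not pass without ULU piglet 40 (1.17) or 41 (1.10), and ATP2A1 without control piglet 24 (0.61) or ULU piglet 43 (0.55) or 44 (0.61). TNNT3 did not pass without control piglet 22, 23 or 26 or ULU piglet 40, 41 or 43 (values from 0.58 to 0.65). MYH2 did not pass without control piglet 22, 23, 24 or 26, UL piglet 29 or ULU piglet 40, 41, 43 or 44 (0.45 to 0.54), nor TNNI1 without control piglet 21, 22, 23, 24 or 26, UL piglet 28 or ULU piglet 40, 41 or 44 (0.77 to 1.00). With the mitochondrial share as a covariate none of the 5 passed. The slow troponins were then at 0.63 (SE 0.46) for TNNT1 and 0.35 (SE 0.38) for TNNI1, while TNNT3 was at 0.64 (SE 0.25), ATP2A1 at 0.61 (SE 0.24) and MYH2 at 0.62 (SE 0.22). The summed muscle fibre markers moved with them, as control averaged 133002 ± 24841 CPM (SD, n = 6), UL 153934 ± 17767 CPM (SD, n = 6) and ULU 191214 ± 47814 CPM (SD, n = 5), with ACTA1 the most abundant. In bulk tissue, fewer cells of a type and less RNA per cell cannot be told apart, and the part of fibre content in these values was not tested.

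With the mitochondrial share as a covariate, all 11 list genes kept their direction and 0 of 11 passed by edgeR, with 8 of all tested genes passing. The standard errors of all 11 were larger in that model than without the covariate. Control and ULU did not overlap in the mitochondrial share, so the model cannot fully separate the share from the diet here. With only the control and ULU libraries in the edgeR model, 1 of the 11 passed, and without ULU piglet 43, 3 did. Both DESeq2 fits passed all 11.

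The remaining lists are summarised by their ULU vs control values, beside an all-gene median of -0.03. The 23 tested partners of MuSK and rapsyn had a median log2(fold change) of -0.06, with 1 higher (CAPN1) and 1 lower (ABL2). The 14 genes of the synaptic cleft and basal lamina had a median of -0.32 with 0 passing by edgeR, and the 13 of the postsynaptic membrane and scaffold 0.16 with 1 passing (SCN4A). The 18 transcriptional regulators had a median of -0.06 with 2 higher and 1 lower, MYOD1 and MYF6 among them. Of the other nicotinic subunits, mostly neuronal, 3 of 10 gene models were above the filter, with a median of 0.37. Per kilobase of exon CHRNA10 averaged 0.784 CPM, CHRNA5 0.292 CPM and CHRNA3 0.166 CPM, all above DOK7 (0.0867 CPM), and the first 2 also above LRP4 (0.264 CPM). The 4 tested glycosylation genes of congenital myasthenia had a median of -0.02. The 12 denervation-responsive genes had a median of -0.11, with 0 passing by edgeR.

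The largest value of any list gene in ULU vs control belonged to the stress-responsive ANKRD1, at -2.01 (SE 0.62). It ranged from 135 through a median of 326 to 1209 CPM in control and from 40.8 to 287 CPM in ULU, with 4 of 5 ULU piglets below every control. Its adjusted p was 0.0808 by edgeR's quasi-likelihood F test and Benjamini-Hochberg adjustment, so it did not pass by edgeR. The study, which used DESeq2, reports ANKRD1 as higher in control than in ULU. ANKRD1 also had the largest value in ULU vs UL, at -1.63, and the adipocyte gene PLIN1 had the largest in UL vs control, at -1.48, and neither passed.

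**Figure D3:**
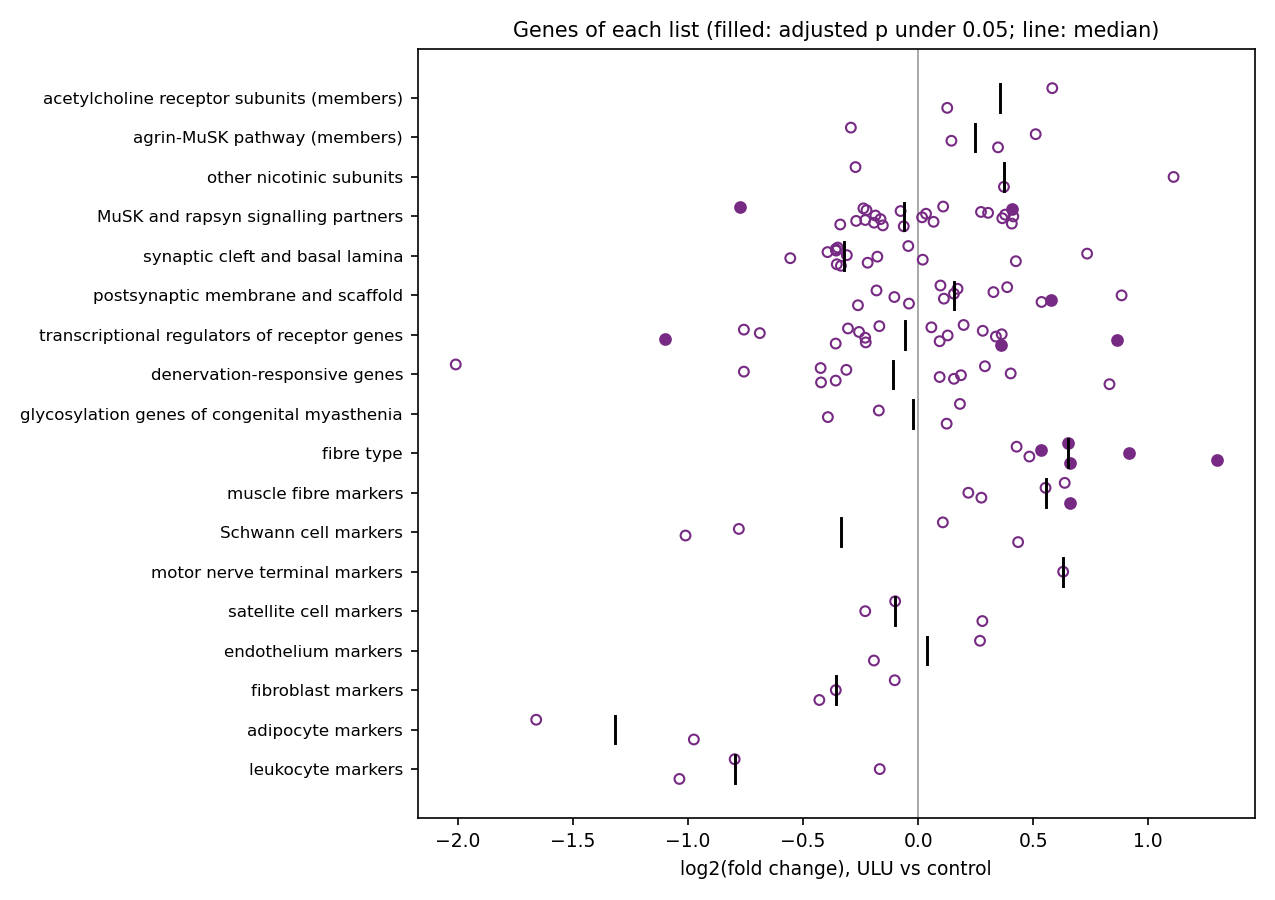
The log2(fold change) in ULU vs control of each tested gene, by list, with filled points for genes with an adjusted p under 0.05 and a line at the median. The members show 0 filled points, and the fibre type list shows 5, with a median of 0.65.

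Markers of other cells at the junction were also read. Of the motor nerve markers, CHAT and SLC18A3, which make and load acetylcholine, had 0 reads in all 17 libraries, which allows up to 0.195 CPM. SNAP25 had 0 reads in 16 libraries and SLC5A7 in 15, with 5 reads (0.303 CPM) in control piglet 23. SYT2 had 0 reads in 4 libraries and at most 8 reads (0.520 CPM, in ULU piglet 41). The nuclei of motor neurons lie in the spinal cord, outside the sample. Summed over its 6 markers the list averaged 1.45 ± 0.312 CPM for control (SD, n = 6), 1.89 ± 0.661 CPM for UL (SD, n = 6) and 2.08 ± 0.741 CPM for ULU (SD, n = 5), with VAMP1 the most abundant and the only marker tested (log2(fold change) 0.63 in ULU vs control). Schwann cell markers summed to 146 ± 25.4, 166 ± 23.2 and 191 ± 37.1 CPM in the same order, nearly all of it PMP22, which other cells express too, and the median log2(fold change) of the 4 tested was -0.34.

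The other cell types gave these medians of the log2(fold change) in ULU vs control. The 5 tested muscle fibre markers had 0.55 with 1 passing (TNNT3, which the fibre type list also holds), the 3 satellite cell markers -0.10, the 2 endothelium markers 0.04 and the 3 fibroblast markers -0.36. The 2 tested adipocyte markers had -1.32 and the 3 leukocyte markers -0.80. Of the Schwann, nerve terminal, satellite, endothelium, fibroblast, adipocyte and leukocyte markers, 0 passed by edgeR. Adipocyte markers differed widely among control piglets, with a sum between 9.84 and 246 CPM.

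The 18.2-fold range of CHRNA1 raised the question of which genes varied with it among piglets on the same diet, and the choice to ask this of CHRNA1 was made after its values were seen. Each gene was expressed as log2 CPM minus the mean of its diet (n = 17), and CHRNA1 was set against the 111 list genes, with 100000 permutations within diets. Together with 15 pairs of members this made 126 relations, adjusted together. Of the 111 genes, 55 correlated positively and 56 negatively, and 11 passed at an adjusted p under 0.05 by both Pearson's r and Spearman's rho. Permutation p was not computed over all tested genes, so no share of them stands beside the 11.

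By r, the closest were RUNX1, MYH3, ACHE, the leukocyte marker CD68 and MYH8. RUNX1, a transcription factor that rises in denervated muscle and is also present in leukocytes, had r = 0.94 (permutation p = 2e-05, adjusted 0.00189) and rho = 0.92 (p = 2e-05, adjusted 0.00126). The embryonic myosin MYH3 had r = 0.94 (permutation p = 3e-05, adjusted 0.00189) and rho = 0.88 (p = 0.00019, adjusted 0.00479). The perinatal myosin MYH8 had r = 0.85 (permutation p = 0.0004, adjusted 0.0072) and rho = 0.91 (p = 2e-05, adjusted 0.00126). Without ULU piglets 42 and 43, which lay farthest from the middle in CHRNA1, r was 0.89, 0.90 and 0.79 for the 3 genes, so the relations did not rest on those animals.

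Genes of the cleft and of signalling, and a myogenic factor, also passed. ACHE, the enzyme that clears acetylcholine from the cleft, had r = 0.86 (permutation p = 0.00028, adjusted 0.00672) and rho = 0.86 (p = 0.00011, adjusted 0.00346), and r = 0.81 without the same 2 piglets. MYOG had r = 0.75 (permutation p = 0.00032, adjusted 0.00672) and rho = 0.71 (p = 0.00346, adjusted 0.0396), and r = 0.83 without them, and its r and rho were the lowest of the positive genes that passed by both measures. Of all tested genes, 97.2% had a lower r than MYOG and 99.97% a lower r than RUNX1, so that genes outside the lists were as close to CHRNA1 as MYOG. The others that passed by both measures were UCHL1, MACF1 and BGN, all positive, the leukocyte markers PTPRC and CD68, and the adaptor CRKL with a negative r. UCHL1 weakened from r = 0.82 to 0.56 without the 2 piglets, and CRKL went from -0.65 to -0.80. Of the 12 tested denervation-responsive genes, 5 passed by both measures (MYOG, RUNX1, MYH3, MYH8 and UCHL1), and the list's median r was 0.60, beside -0.045 over all tested genes. The atrophy ligase TRIM63 had r = -0.02 (permutation p = 0.953, adjusted 0.984) and rho = 0.06 (p = 0.83, adjusted 0.959), so the list did not vary as a unit.

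The values show the pattern in single animals. MYH3 measured 46.9, 28.7, 272, 23.3 and 49.0 CPM in ULU piglets 40 to 44, and ACHE measured 5.55, 8.77, 50.5, 0.148 and 12.8 CPM. RUNX1 measured 5.15, 7.67, 37.4, 4.58 and 7.68 CPM. Piglet 42 was the highest and piglet 43 the lowest ULU animal for each of these genes, as for CHRNA1. The match was not complete: in control MYH8 was highest in piglet 21 and MYOG in piglet 26, and in ULU MYOG was lowest in piglet 41. In control, piglet 22 was the highest and piglet 24 the lowest for CHRNA1, MYH3, RUNX1 and ACHE, and in UL, piglet 27 was the lowest for these 4 genes and for CHRNE. None of these companions passed in ULU vs control by edgeR.

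Leukocyte markers moved with CHRNA1 too. Their sum, led by PTPRC, was 11.2, 24.8, 51.0, 9.12 and 12.3 CPM in ULU piglets 40 to 44, between 13.4 and 63.7 CPM in control and up to 42.4 CPM with a median of 27.3 CPM in UL, and 0 of the 3 markers was at 0 in all libraries. PTPRC had r = 0.83 (permutation p = 8e-05, adjusted 0.00252) and rho = 0.80 (p = 0.00031, adjusted 0.00651), and r = 0.75 without ULU piglets 42 and 43. CD68 had r = 0.85 (permutation p = 8e-05, adjusted 0.00252) and rho = 0.89 (p = 4e-05, adjusted 0.00168), and r = 0.78 without them. CD3E, the marker of T cells, had r = 0.42 (permutation p = 0.119, adjusted 0.335) and rho = 0.39 (p = 0.147, adjusted 0.355). The part of leukocyte content in the CHRNA1 relations was not tested.

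Several muscle fibre genes had a negative r with CHRNA1, and 0 passed by both measures. The r was negative for 4 of the 5 tested muscle fibre markers and 5 of the 7 fibre type genes. The median r was -0.53 over the former and -0.47 over the latter, beside -0.045 over all tested genes. MYH2 had r = -0.79 (permutation p = 0.00386, adjusted 0.0347) and rho = -0.66 (p = 0.00892, adjusted 0.0803), and r = -0.50 without ULU piglets 42 and 43. TNNT3 had r = -0.67 (permutation p = 0.00296, adjusted 0.0287) and rho = -0.63 (p = 0.0125, adjusted 0.0872), and r = -0.62 without them, so both passed by r and not by rho. ACTA1 had r = -0.60 (permutation p = 0.0414, adjusted 0.193) and rho = -0.55 (p = 0.0389, adjusted 0.188), and r = -0.29 without them. The summed fibre markers, led by ACTA1, measured 188454, 191567, 143578, 269224 and 163247 CPM in ULU piglets 40 to 44, lowest in piglet 42 and highest in piglet 43. In control they were lowest in piglets 22 (101190 CPM) and 26 (107499 CPM), which had the most CHRNA1. UL piglet 27 did not follow, with the lowest CHRNA1 and the lowest fibre sum (128163 CPM) of its diet. The part of fibre content in the CHRNA1 relations was not tested.

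**Figure D4:**
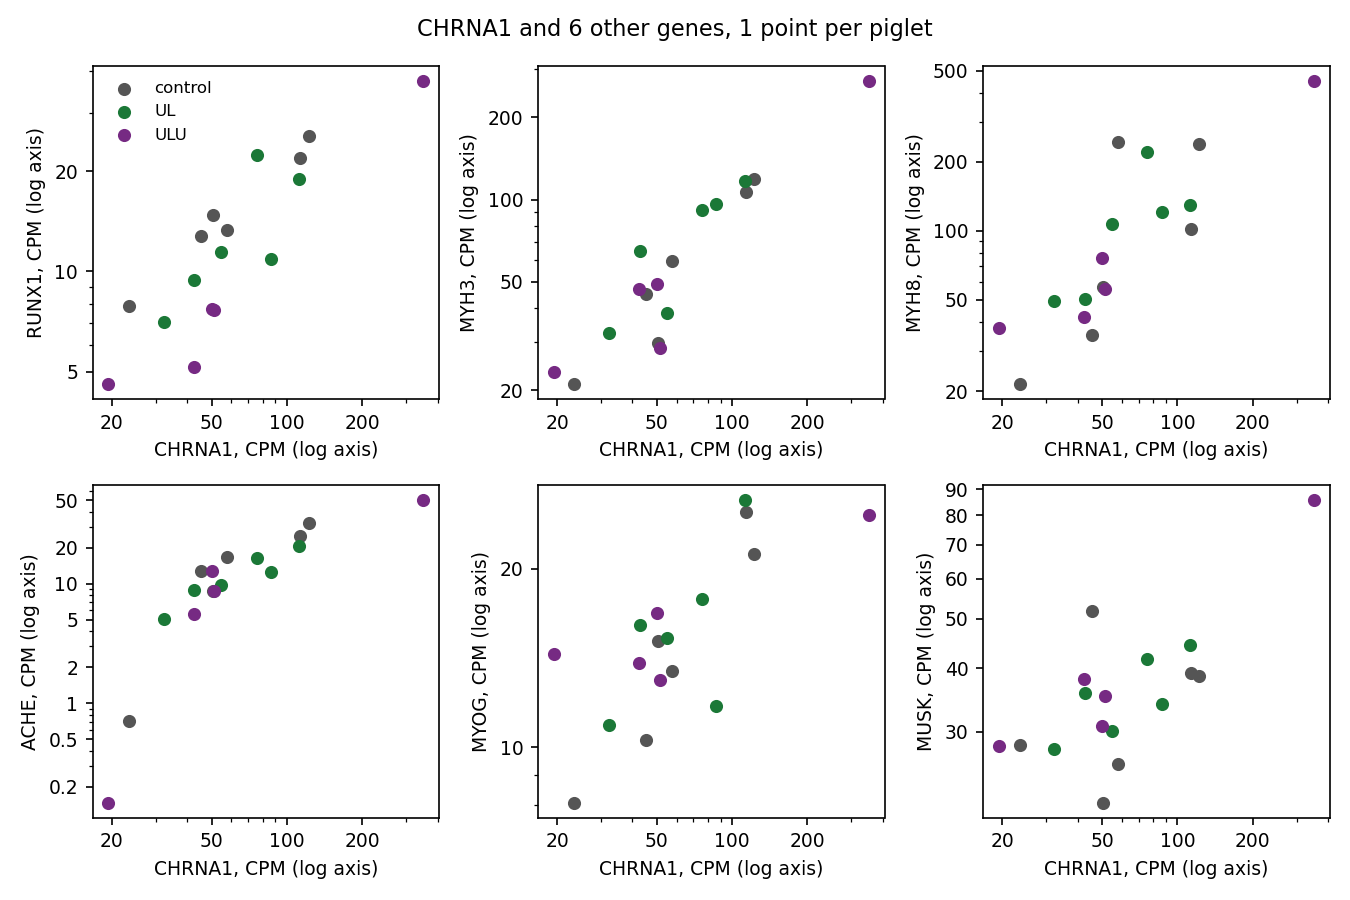
CPM of RUNX1, MYH3, MYH8, ACHE, MYOG and MUSK against CPM of CHRNA1 on log axes, with 1 point per piglet coloured by diet. ULU piglet 42 lies at 352 CPM of CHRNA1, and within-diet r runs from 0.74 for MUSK, which did not pass, to 0.94 for RUNX1.

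Among the members themselves, 0 of 15 pairs passed by the within-diet permutation test of either r or rho after adjustment. CHRNA1 and MUSK had r = 0.74 (permutation p = 0.0116, adjusted 0.0814) and rho = 0.59 (p = 0.0242, adjusted 0.152), and r = 0.46 without ULU piglets 42 and 43, so this value rested largely on those animals. The alpha and epsilon subunits had r = 0.48 (permutation p = 0.0433, adjusted 0.195) and rho = 0.50 (p = 0.0562, adjusted 0.236), and r = 0.66 without the same piglets. CHRNE and LRP4 had a negative r of -0.60 (permutation p = 0.0109, adjusted 0.0809) and rho of -0.66 (p = 0.0075, adjusted 0.0734), and r = -0.47 without UL piglet 27 and control piglet 24.

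Over all tested genes, those most like each member in within-diet log2 CPM are given as a description (Pearson r, n = 17). For CHRNA1 they were PHLDA2 (0.95), an unnamed gene over CTSA and PLTP of RefSeq (ENSSSCG00000007435, 0.95) and IL10RA (0.95). For MUSK they included an unnamed gene at MAL (ENSSSCG00000008115, 0.91) and an unnamed gene at TXN (ENSSSCG00000005453, 0.87). For CHRNE they were SPTLC2 (0.89), GRIA1 (0.81) and the unnamed ENSSSCG00000036469 (0.81). For LRP4 they were PLXNA2 (0.84), the unnamed ENSSSCG00000043982 (0.82) and USP1 (0.82). AGRN was most like a gene named NONO that lies over ZMYM3 and ITGB1BP2 of RefSeq (ENSSSCG00000023245, 0.91), IGSF8 (0.89) and IP6K1 (0.85). DOK7, below a mean of 1 CPM, was not included.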

How the data were processed

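The authors deposited raw gene counts from featureCounts, per the file headers version 2.0.1, on Ensembl release 104 of Sscrofa11.1, while the labels name Subread 1.5.1. Strandedness of the libraries is not given in the sources used here. Genes were matched by symbol, and 6 list genes by position against RefSeq. Counts were filtered with filterByExpr, scaled with TMM and tested in edgeR 4.0.16 (R 4.3.3, limma 3.58.1), with the quasi-likelihood F test in 1 model of 17 libraries and Benjamini-Hochberg adjustment over 14203 genes. A gene passed at an adjusted p under 0.05. No further threshold on fold change was used. Standard errors (SE) of edgeR values were derived from the test, as the absolute log2(fold change) divided by the square root of F. Correlations used log2 CPM with a prior count of 2 in Python 3.11.15 (pandas 2.3.3, numpy 2.4.6, scipy 1.17.1), and their permutation tests were two-sided.

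Alternatives were DESeq2 size factors, no filter, 1 CPM in 5 libraries, the mitochondrial share as a covariate, DESeq2 1.42.0 on all libraries or on 2 diets, edgeR on 2 diets, a log2(fold change) limit of 1, and leaving out each library. Levels per kilobase of unshared exon, and the variation of the members without each library, were added after seeing the data. DESeq2 counts in the report come from the fit to all libraries, except where both fits are given, with the fit to 2 diets second.

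Named genes were all 10 members; from each other list, genes that passed in any comparison (at most 6) and the 3 with the highest mean CPM per kilobase; the list gene with the largest log2(fold change) of each comparison; and for members with a mean of at least 1 CPM, the 3 most correlated genes. From these, the text gives those that bear on the members, and 2 genes that meet the rule are not reported here. Genes named for their correlation with CHRNA1 were chosen after their values were seen. Members and lists were chosen with earlier results of these data known. No CHRNG to CHRNE ratio was computed, since CHRNG had no usable gene model. The detection floor was 3 reads.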

Additional observations from a re-analysis of the deposited data

Results flagged for a closer look

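Within each diet, a value was singled out where its gap to the nearest other piglet exceeded Dixon's limit as a share of the group's range. This was done for 90 groups of values from 30 genes, and 13 passed the limit. Chance passes about 1 in 20 independent groups, but these are not independent: 8 of the 13 are the same piglet, and several of the genes were looked at because they vary with CHRNA1, so the count is not set against that rate. ULU piglet 42 had 352 CPM of CHRNA1, with 51.3 CPM in the nearest ULU piglet. The same piglet had 85.8 CPM of MUSK, with 38.1 CPM in the nearest. It had 272 CPM of MYH3, with 49.0 CPM in the nearest. For MYH8 it had 451 CPM, with 76.1 CPM in the nearest. For RUNX1 it had 37.4 CPM, with 7.68 CPM in the nearest. For UCHL1 it had 29.6 CPM, with 7.25 CPM in the nearest. For ACHE it had 50.5 CPM, with 12.8 CPM in the nearest. For ANKRD1 it had 287 CPM, with 98.8 CPM in the nearest. UL piglet 27 had 3.81 CPM of LRP4, and CDKN1A was at 794 CPM in the same piglet. Control piglet 26 had 1209 CPM of ANKRD1, with 411 CPM in the nearest control. Control piglet 23 had 29.0 CPM of SCN4A, below the nearest control at 34.0 CPM. ULU piglet 43 had 171 CPM of MYOD1, with 96.4 CPM in the nearest ULU piglet.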

How the results depend on the processing

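In all 3 comparisons 0 members passed by edgeR or DESeq2 under each of 8 alternatives and with each of 17 libraries left out, and the smallest adjusted p of a member under any of them was 0.258. The fold change limit could only leave 0 calls at 0. DOK7 was too low to be tested with 1 CPM in 5 libraries. It had 5 or 6 alternative values per comparison, where each other member had 7. Of 122 alternative values of the members' log2(fold change), 3 reversed, all with the mitochondrial share as a covariate: CHRNA1 in UL vs control (0.43), CHRNE in ULU vs control (-0.20) and LRP4 in ULU vs control (-0.21). The cause was not tested.

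Of 306 values with 1 library left out, 19 reversed. In UL vs control the values ranged from -0.24 to 0.22 for CHRNA1, -0.04 to 0.21 for MUSK, -0.34 to 0.01 for LRP4 and -0.02 to 0.36 for AGRN. In ULU vs control they ranged from -0.75 to 0.84 for CHRNA1, -0.06 to 0.25 for CHRNE, -0.05 to 0.50 for MUSK and -0.09 to 0.31 for LRP4. In ULU vs UL they ranged from -0.72 to 0.88 for CHRNA1, -0.11 to 0.42 for MUSK and -0.02 to 0.48 for LRP4.

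The number of all genes passing moved more. In UL vs control (0 by edgeR, 1541 at an unadjusted p under 0.05) it was 2 with the mitochondrial covariate, 152 by DESeq2 on all libraries, 149 by DESeq2 on 2 diets, and 0 to 16 with 1 library left out. In ULU vs control (423) it was 228 without a filter, 8 with the covariate, 1069 and 825 by DESeq2, 111 by edgeR on 2 diets, 59 with the fold change limit, and 147 (without piglet 43) to 799 (without piglet 25) with 1 library left out. In ULU vs UL (5) it was 8 without a filter and with 1 CPM in 5 libraries, 2 with the covariate, 252 and 246 by DESeq2, 1 by edgeR on 2 diets, 2 with the fold change limit, and 1 to 7 with 1 library left out. The cause was not tested. The alternatives for the CHRNG to CHRNE ratio were not run, since CHRNG had no usable count. Depth limits DOK7, with 2 to 22 reads, and with 5 or 6 piglets per diet the spread of CHRNA1 leaves a standard error of 0.58 in ULU vs control.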
